A study of Mus musculus with 4 samples.

Results

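Serpins are protease inhibitors that trap their target in a covalent complex, and several mouse members act inside the cell, where they guard lymphocytes against granzymes or lysosomal proteases that leave their vesicles. Cathepsins are mostly lysosomal proteases: they digest taken-up and worn-out proteins, mature granule enzymes, and trim the invariant chain and antigens in antigen-presenting cells. In a cytotoxic lymphocyte, granzymes, cathepsins and the serpins that inhibit them are thus present in the same cell, and activated blood CD8+ T cells and NK cells are known for all 3 groups.

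The genes described here are 8 of the 27998 genes in the count tables: the serpins Serpina3g, Serpinb9, Serpinb6b and Serpinb6a and the cathepsins Ctsd, Ctsb, Ctsc and Ctss. They were picked by name, with earlier results of these data known. Each symbol matched a single gene, and all 8 passed the filter on low counts of each main comparison below. The cells were enriched CD3+ T cells from the blood of C57BL/6 mice bearing subcutaneous tumors of MC-38, a mouse colon carcinoma line, taken 18 days after tumor challenge and sequenced at the 3′ end of transcripts with unique molecular identifiers (UMIs). There were 4 libraries, 1 per treatment: untreated; anti-PD-L1 (150 µg on days 10, 13 and 17), which blocks an inhibitory ligand; anti-OX40/CpG (150 µg of an agonist antibody to the costimulatory receptor OX40 with 25 µg of the TLR9 ligand CpG on day 7); and PDOX, the combination of both. All mice carried the tumor and were 6 to 8 weeks old at the start; the label of the third library names OX40 alone, and the regimen is that of the study's methods. The record speaks of 4 mice, so mouse, library and treatment cannot be told apart, and differences between treatments are given without a test. Differences between cell states were tested with the library as the replicate.

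Of 5434 cells, 5299 had 200 or more genes, between 784 and 1559 per library, with a median of 1434 to 1618 UMIs per cell, not counting mitochondrial, ribosomal or hemoglobin genes. Gates on raw UMIs gave 2116 CD8 T cells (Cd3 and Cd8a or Cd8b1, no Cd4), 866 CD4 T cells, 62 NK cells and 81 monocytes, and 2174 cells fell in no gate. The gates held 5 to 30 NK cells and 6 to 33 monocytes per library, and 16 barcodes occurred in more than 1 library. In the NK gate 6 of 6 NK markers that had not set the gate were found and 3 of 6 monocyte markers, at 78.8 per 10000 of all UMIs, with Apoe, Lst1 and Ifitm3 at 0. In the monocyte gate all 6 monocyte markers were found and 5 of 6 NK markers, at 97.6 per 10000, with Prf1 at 0; Fcer1g and Tyrobp are on both lists. The untreated library stood apart in its hemoglobin, 7.99% of its UMIs against 0.344% to 1.70% in the other libraries. Levels are UMIs per 10000 UMIs of a gate; libraries are listed in the order untreated, anti-PD-L1, anti-OX40/CpG, PDOX; and intervals are exact 95% intervals that cover counting error only.

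The sequences upstream of the genes are shown for 4 members, chosen because they held a motif and their results are described at length, among motifs that interferon- and lysosome-related factors are known to bind. RefSeq promoters (GRCm38.p6, the 250 bases before the transcription start, 5′ to 3′ on the gene's strand) were found for 7 of the 8 members, Ctsb being the exception, and 4 motifs were searched on both strands. The interferon-gamma activated site TTCNNNGAA occurred in 7.02% of 32851 promoters, the interferon-stimulated response element, searched as a pair of GAAA with 2 bases between them, in 2.98%, CACGTG, the core bound by TFEB, the regulator of lysosomal genes, in 6.02%, and the T-box motif AGGTGTGA in 1.12%. Capitals mark a match, and a match is a description of these letters, not of binding. The windows are chr12:104235897-104236146 on the plus strand, chr13:33004291-33004540 on the plus strand, chr7:142387828-142388077 on the minus strand and chr3:95526536-95526785 on the plus strand.
Serpina3g: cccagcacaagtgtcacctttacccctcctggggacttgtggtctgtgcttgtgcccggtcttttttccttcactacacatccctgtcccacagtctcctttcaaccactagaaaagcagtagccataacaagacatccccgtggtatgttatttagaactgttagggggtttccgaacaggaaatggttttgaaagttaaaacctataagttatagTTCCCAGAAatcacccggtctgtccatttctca
Serpinb9: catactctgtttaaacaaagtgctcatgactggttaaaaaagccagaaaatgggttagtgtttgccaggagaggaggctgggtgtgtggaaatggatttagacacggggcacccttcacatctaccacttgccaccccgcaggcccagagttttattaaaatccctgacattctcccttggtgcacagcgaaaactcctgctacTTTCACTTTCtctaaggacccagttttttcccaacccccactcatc
Ctsd: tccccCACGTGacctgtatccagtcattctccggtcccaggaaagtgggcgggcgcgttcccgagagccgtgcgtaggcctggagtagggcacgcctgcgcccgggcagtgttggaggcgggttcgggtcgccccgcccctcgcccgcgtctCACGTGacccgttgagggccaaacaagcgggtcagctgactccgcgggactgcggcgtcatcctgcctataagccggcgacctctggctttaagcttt
Ctss: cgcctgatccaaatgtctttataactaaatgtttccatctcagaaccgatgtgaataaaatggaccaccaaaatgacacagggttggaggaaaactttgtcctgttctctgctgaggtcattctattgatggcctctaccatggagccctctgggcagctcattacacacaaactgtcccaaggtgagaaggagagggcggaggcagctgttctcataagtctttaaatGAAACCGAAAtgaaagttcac
Serpina3g held TTCNNNGAA 33 bases before its start, Serpinb9 and Ctss held the response element 46 and 21 bases before theirs, in Serpinb9 on the opposite strand, and Ctsd held CACGTG at 245 and 98 bases. Of the other members, Ctsc had TTCNNNGAA, Serpinb6a had both interferon motifs in overlapping letters, Serpinb6b had none of the 4, and AGGTGTGA was in none of the 7. The genes lie on 5 chromosomes of GRCm38.p6: Serpinb6b (chr13:32956811-32979067), Serpinb9 (chr13:32997061-33017955) and Serpinb6a (chr13:33917918-34002794) in a serpin cluster of chromosome 13, Ctsb at chr14:63122462-63145923, Ctsc at chr7:88278024-88315861 and Ctss at chr3:95526786-95556405. The Serpinb9 start of the promoter table lies inside the span annotated for the gene.

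Serpina3g, at chr12:104236147-104241939, encodes Spi2A, an intracellular inhibitor of cathepsin B. In the CD8 T gate its level was 0.0784, 0.291, 0.452 and 0.851 UMIs per 10000 in the 4 libraries, and 1.24%, 3.92%, 4.75% and 11.4% of cells had a UMI. The order of the libraries was the same for both measures, lowest in the untreated and highest in PDOX. Of the last 500 bases of its transcripts, 57.6% of 90-base windows also occur in paralogs such as Serpina3f and Serpina3i. Reads from such windows do not tell these genes apart by sequence. Serpina3f had 19 UMIs and Serpina3i 0 against 356 for Serpina3g. How many Serpina3g reads were lost or counted for a paralog was not tested. The other 7 members had no shared window.

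The T cell gates were split by state: a cell was called activated with UMIs of at least 3 of S100a4, S100a6, Lgals1, Ccl5, Id2 and Ahnak, none of them a serpin or cathepsin. Activated cells were 10.2%, 18.1%, 28.7% and 51.1% of the CD8 T gate and 10.8%, 9.65%, 36.5% and 59.5% of the CD4 T gate. In activated CD8 T cells Serpina3g was at 0.391, 0.75, 1.1 and 1.31 UMIs per 10000, against 0.0231, 0.0666, 0.0804 and 0.154 in the other CD8 T cells of the same libraries. All activated values lay above all values of other cells. The untreated activated value rests on 3 UMIs, and the values of other cells on 1, 6, 6 and 5. The log2 fold change was 3.55 ± 0.28, adjusted p = 2.5e-09 (edgeR, n = 4 libraries), the largest among the members.

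All 4 serpins and 3 of the 4 cathepsins were higher in activated than in other CD8 T cells, 7 of 8 members, where 10.9% of the 5311 genes tested were higher. The median log2 fold change was 1.38 over the members and -0.00095 over all genes. Serpinb9 (Spi6), the inhibitor of granzyme B, was at 0.782, 0.432, 0.516 and 0.422 UMIs per 10000 in activated cells and 0.0461, 0.122, 0.107 and 0.307 in other cells; its values did not overlap, and in PDOX the other cells came close to the activated cells (log2 fold change 1.88 ± 0.39, adjusted p = 0.0012). Serpinb6b, whose product inhibits granzyme A, was at 1.17, 1.46, 1.43 and 1.37 against 0.415, 0.399, 0.362 and 0.461. In both states its 4 libraries lay close together and the states were far apart (log2 fold change 1.85 ± 0.23, adjusted p = 3.4e-06).

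Serpinb6a, a broadly expressed inhibitor of cathepsin G and related serine proteases, was at 0.261, 0.568, 0.563 and 0.664 UMIs per 10000 in activated and 0.323, 0.20, 0.241 and 0.154 in other CD8 T cells. It was higher in activated cells of the 3 treated libraries and not of the untreated one, whose activated value rests on 2 UMIs (log2 fold change 1.43 ± 0.27, adjusted p = 0.00039). Serpinb6a and Serpinb9 had too few UMIs to be tested in cells thinned to 750 UMIs and in strict gates, which leave out cells with Lyz2, Csf1r, Cd79a, Cd79b, Hba-a1 or Hbb-bs UMIs.

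Ctsd, the aspartic protease of the lysosome, at chr7:142375910-142387827, had 4950 UMIs in all and was found in 46.0% of the kept cells. Activated CD8 T cells had 3.26, 8.21, 10.5 and 12.2 UMIs per 10000 and other CD8 T cells 3.44, 3.46, 3.77 and 3.72. The other cells lay within a narrow band in all libraries. Activated cells of the untreated library lay close to it, and those of the 3 treated libraries far above it. The untreated activated cells also held 6 monocyte markers at 26.5 per 10000 of all UMIs, and the part of monocyte RNA in their Ctsd level was not tested. The log2 fold change over the 4 libraries was 1.33 ± 0.21, adjusted p = 5.9e-05, and it was called under every alternative run.

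Ctsb, a cysteine protease and the target of the Serpina3g product, was at 2.08, 3.21, 1.9 and 1.81 UMIs per 10000 in activated and 1.04, 1.13, 1.0 and 1.26 in other CD8 T cells, higher in 4 of 4 libraries (log2 fold change 1.14 ± 0.15, adjusted p = 5.9e-06). Ctsc, or dipeptidyl peptidase I, which activates granzymes by removing their propeptide, was at 1.04, 2.21, 1.45 and 1.17 against 1.11, 1.12, 1.02 and 0.769 (log2 fold change 0.79 ± 0.23, adjusted p = 0.020). The anti-PD-L1 library was the highest for both genes. The Ctsc call was lost without the anti-PD-L1 library (0.62, adjusted p = 0.19), without anti-OX40/CpG (0.85, adjusted p = 0.080) and without PDOX (0.80, adjusted p = 0.051), and DESeq2 did not make it.

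Ctss encodes the cysteine protease that processes the invariant chain in antigen-presenting cells. Activated CD8 T cells held 4.56, 4.55, 1.76 and 1.61 UMIs per 10000 and other CD8 T cells 2.44, 2.94, 2.56 and 2.89. Activated cells were higher in the untreated and anti-PD-L1 libraries and lower in anti-OX40/CpG and PDOX, and the fit gave no call (log2 fold change 0.15 ± 0.31, adjusted p = 0.80). The monocyte gene Lyz2 followed the same split: 54.9 and 37.1 per 10000 in activated cells of the first pair of libraries and 0.188 and 0.382 in the second. The summed level of 6 other monocyte markers, all of them found in each library, was 26.5 and 27.4 per 10000 of all UMIs against 3.03 and 2.21, and 1.44 to 1.9 in other CD8 T cells.

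In the strict gates, which held no Lyz2 or Csf1r UMI, Ctss in activated CD8 T cells was 1.81, 1.66 and 1.62 UMIs per 10000 in the 3 treated libraries, against 2.96, 2.71 and 3.09 in other cells. The untreated library kept 2 activated cells there and did not enter. Ctss was then lower in the activated cells of all 3 libraries and called (-0.73, adjusted p = 0.0018, edgeR). In the same gates Ctsb and Ctsc of the activated anti-PD-L1 cells were 1.21 and 1.0 per 10000. Ctsb stayed called (0.70, adjusted p = 0.020), Ctsc did not (0.54, adjusted p = 0.13), and Ctsd was at 1.65, adjusted p = 3.3e-11.

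**Figure D1:**
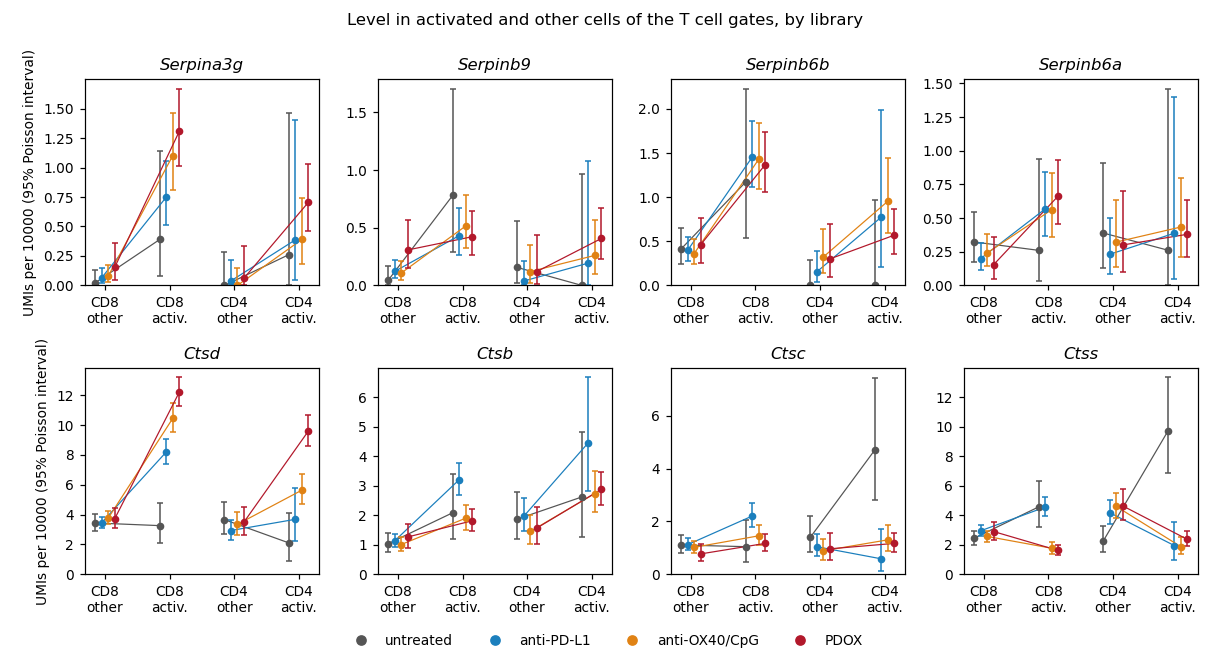
Level of each gene (UMIs per 10000, y axis, with exact 95% Poisson intervals) in other and activated cells of the CD8 and CD4 T gates (x axis), 1 point per library, joined within a library. Serpina3g and Serpinb6b of CD8 T cells lie higher in activated cells in every library, Ctsd in the 3 treated libraries, and the lines of Ctss cross.

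Activated cells were also deeper, with medians of 1928 to 2967 UMIs in the CD8 T gate against 1475 to 1648 in other cells. Thinned to 750 UMIs per cell, Serpina3g had a UMI in 7.35% of activated and 0.36% of other CD8 T cells (17.1% and 0.976% before thinning). For Ctsd these shares were 46.6% and 23.3%, from 75.1% and 40.2%. Serpina3g, Serpinb6b, Ctsd, Ctsb and Ctsc stayed called in the fit of thinned CD8 T cells.

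In CD4 T cells 4 of 8 members were higher in activated cells, where 8.13% of genes were, with a median log2 fold change of 0.88 over the members and -0.017 over all genes. Serpina3g was at 0.262, 0.388, 0.391 and 0.706 UMIs per 10000 against 0, 0.0386, 0 and 0.0601 in other cells (log2 fold change 3.94 ± 0.59, adjusted p = 5.2e-05); other CD4 T cells held 2 Serpina3g UMIs in all and activated ones 38, a ratio of 22.1-fold (5.72 to 189). Serpinb6b was at 0, 0.776, 0.955 and 0.57 against 0, 0.154, 0.322 and 0.30 (log2 fold change 1.68 ± 0.43, adjusted p = 0.0095). Neither state of the untreated library had a Serpinb6b UMI.

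Ctsd in the activated CD4 T cells was 2.1, 3.68, 5.64 and 9.61 UMIs per 10000, against 3.66, 2.93, 3.34 and 3.49 in other CD4 T cells, and Ctsb 2.62, 4.46, 2.73 and 2.88 against 1.87, 1.97, 1.45 and 1.56. As in CD8 T cells, the Ctsd level of other cells hardly varied among libraries, and that of activated cells was highest in PDOX (log2 fold changes 0.80 ± 0.25, adjusted p = 0.034 for Ctsd and 0.95 ± 0.18, adjusted p = 0.00069 for Ctsb). The Ctsd call was lost without anti-PD-L1 (0.83, adjusted p = 0.086), anti-OX40/CpG (0.77, adjusted p = 0.19) or PDOX (0.38, adjusted p = 0.46), and DESeq2 did not make it. The Serpinb6b call was lost without anti-PD-L1 (1.47, adjusted p = 0.068) or anti-OX40/CpG (1.70, adjusted p = 0.085). In thinned cells Ctsd kept its call (1.05, adjusted p = 0.00025), while Serpina3g (3.24, adjusted p = 0.057), Serpinb6b (0.63, adjusted p = 0.72) and Ctsb (0.77, adjusted p = 0.12) lost theirs.

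The 4 members without a call in CD4 T cells had log2 fold changes of 1.45 ± 0.65, adjusted p = 0.15 (Serpinb9), 0.40 ± 0.40, adjusted p = 0.59 (Serpinb6a), 0.68 ± 0.33, adjusted p = 0.18 (Ctsc) and -0.34 ± 0.37, adjusted p = 0.63 (Ctss). The 11 activated CD4 T cells of the untreated library had the highest Ctss of any T cell subset, 9.69 UMIs per 10000, the highest Ctsc, 4.71, and Lyz2 at 173. Without this library Ctss was lower in activated CD4 T cells and called (-0.94, adjusted p = 0.022), as it was in strict gates (-0.82, adjusted p = 0.0033) and in thinned cells (-0.94, adjusted p = 0.029). The part of monocyte RNA in the main Ctss values was not tested beyond these fits.

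The test of the difference between CD8 and CD4 T cells in their change with activation called none of the 8 members, where 0.0565% of genes were called, and 1 member had an unadjusted p under 0.05. That was Serpinb6a, with a log2 difference, CD8 minus CD4, of 1.02 ± 0.47 (adjusted p = 0.78, edgeR). The differences of the other 7 were between -0.39 for Serpina3g and 0.53 for Ctsd, each with an SE of 0.23 to 0.82. DESeq2 also called none of the 8.

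Between the gates as a whole, CD4 T cells had a higher Ctsb and a lower Serpinb6b level than CD8 T cells, 1 of 8 members in each direction, where 1.34% of 5223 genes were higher and 1.97% lower. Ctsb was 2.04, 2.38, 2.07 and 2.47 UMIs per 10000 in the CD4 T gate and 1.2, 1.81, 1.33 and 1.59 in the CD8 T gate, higher in CD4 T cells of 4 of 4 libraries (log2 fold change 0.55 ± 0.15, adjusted p = 0.043). Serpinb6b was 0, 0.257, 0.627 and 0.486 against 0.529, 0.746, 0.75 and 1.01, lower in 4 of 4 (-1.05 ± 0.27, adjusted p = 0.026). Both calls were close to the threshold: Ctsb lost it without the untreated (0.50, adjusted p = 0.11), anti-OX40/CpG (0.53, adjusted p = 0.34) or PDOX library (0.53, adjusted p = 0.26) and by DESeq2, and Serpinb6b without anti-PD-L1 (-0.91, adjusted p = 0.083) or PDOX (-1.03, adjusted p = 0.19). Serpina3g was lower in CD4 T cells of 4 of 4 libraries and missed the threshold (-1.05 ± 0.32, adjusted p = 0.081), which it passed without the untreated library (-1.07, adjusted p = 0.038). The median over the members was -0.31, and 0.00034 over all genes.

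NK cells, which store granzymes before they are activated, had more of 3 members and less of 1 than CD8 T cells, where 2.64% of genes were higher and 5.3% lower. Serpinb9 was at 3.0, 3.82, 2.94 and 1.18 UMIs per 10000 in the NK gate and 0.157, 0.224, 0.256 and 0.377 in the CD8 T gate. Its lowest NK value was above its highest T cell value, and 38.7% of NK cells had a UMI against 4.02% of CD8 T cells. The NK values rest on few UMIs, 6, 4, 15 and 3 in the order of the libraries. The log2 fold change was 3.02 ± 0.51, adjusted p = 0.00026 (edgeR, 3 libraries with 10 or more NK cells); without the anti-OX40/CpG library it was 2.54, adjusted p = 0.13.

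Serpinb6b was at 3.0, 3.82, 2.35 and 3.54 UMIs per 10000 in NK cells (1.70 ± 0.42, adjusted p = 0.0094); its call was lost without anti-OX40/CpG (1.81, adjusted p = 0.093) or PDOX (1.69, adjusted p = 0.080). Ctsd was at 16, 21, 15.3 and 17.7 (1.30 ± 0.23, adjusted p = 0.00033), in 83.9% of NK cells, and no library of the CD8 T gate as a whole reached these values. CD8 T cells with 2 or more Gzmb UMIs, given below, came close to them in anti-OX40/CpG and PDOX. For Serpinb6b the same CD8 T cells lay above the NK value in anti-OX40/CpG and below it in anti-PD-L1 and PDOX. Serpina3g was at 1.0, 0.955, 1.96 and 1.18 and just missed the threshold (1.58 ± 0.51, adjusted p = 0.060), which it passed without anti-PD-L1 (1.69, adjusted p = 0.045) or PDOX (2.26, adjusted p = 0.036).

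Ctss was the member that NK cells nearly lacked: 2 UMIs in 62 cells, 0.187 (0.0226 to 0.675) per 10000, against 1046 UMIs and 2.72 (2.56 to 2.89) in the CD8 T gate. The ratio of the CD8 T to the NK level was 14.6-fold (4.02 to 120.0), and the fit gave -3.61 ± 0.66, adjusted p = 0.00056. Median depths were close, 1693 UMIs in NK and 1672 in CD8 T cells. The part of free RNA in the Ctss of either gate was not tested. Serpinb6a (0.59 ± 0.69, adjusted p = 0.70), Ctsb (-0.48 ± 0.44, adjusted p = 0.61) and Ctsc (0.70 ± 0.42, adjusted p = 0.38) were not called. The median over the members was 0.999 and over all genes -0.25, and with 62 cells a 2-fold difference is seldom called here.

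In monocytes, phagocytes rich in lysosomes, 3 cathepsins were higher than in CD8 T cells and Ctsd and 2 serpins lower, where 16.1% of genes were higher and 14.1% lower. Ctss was at 26.1, 26.1, 17.7 and 29.3 UMIs per 10000, 9.7-fold (8.77 to 10.7) the CD8 T level over all libraries (3.32 ± 0.20, adjusted p = 4.1e-12). Ctsb was at 15.9, 16.7, 12 and 14.1, 10.03-fold (8.78 to 11.4) the CD8 T level (3.29 ± 0.17, adjusted p = 4.1e-13). Ctsc was at 8.56, 4.83, 5.26 and 6.99 (2.37 ± 0.24, adjusted p = 2.5e-08), and no T cell library reached the lowest monocyte value of these 3 genes.

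Ctsd ran the other way, at 1.56, 1.53, 0.479 and 3.15 UMIs per 10000 in monocytes (-1.56 ± 0.29, adjusted p = 0.00012), below the CD8 T level of every library. Serpinb9 had no UMI in 81 monocytes of any library, which makes the CD8 T level at least 2.04-fold higher against a floor of 3 counts over the gate; the edgeR call (adjusted p = 0.041) was lost without anti-PD-L1 (adjusted p = 0.14), anti-OX40/CpG (0.088) or PDOX (0.13), and DESeq2 did not make it. Serpinb6b had 2 monocyte UMIs and a CD8 T level 9.2-fold (2.52 to 76.3) as high (-2.96 ± 0.80, adjusted p = 0.0057; -3.07, adjusted p = 0.053 without anti-PD-L1). Serpina3g (-0.70 ± 0.63, adjusted p = 0.43) and Serpinb6a (0.13 ± 0.58, adjusted p = 0.90) were not called, and the median was -0.29 over the members, also with Serpinb9 at its bound, and -0.13 over all genes. Of the 4 gates, Ctsd was lowest in monocytes and highest in NK cells, and Ctss the reverse.

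**Figure D2:**
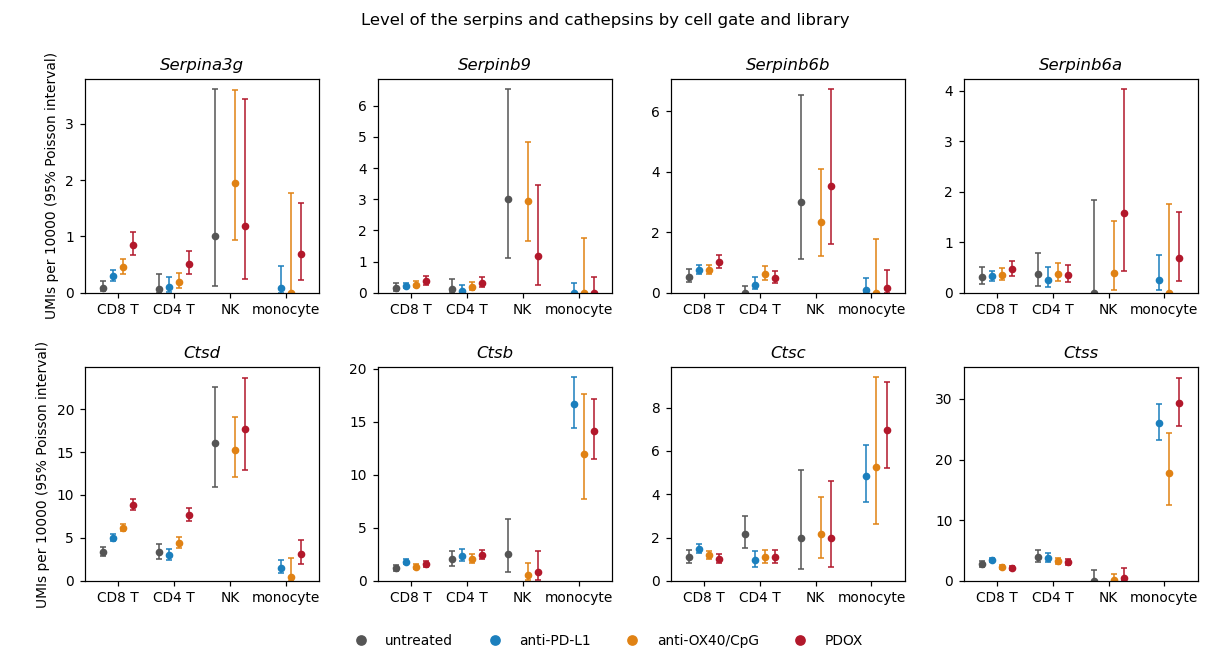
Level of each gene (UMIs per 10000, y axis, with exact 95% Poisson intervals) in the CD8 T, CD4 T, NK and monocyte gates (x axis), 1 point per library with 10 or more cells in the gate. Of these gates as a whole, Serpinb9, Serpinb6b and Ctsd are highest in NK cells and Ctsb, Ctsc and Ctss in monocytes.

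Gzmb, the protease that Serpinb9 inhibits, had UMIs in 1.85%, 7.69%, 11.3% and 20.8% of CD8 T cells, in 75.8% of NK cells and in 0 of 131 B cells, which allows up to 0.168 UMIs per 10000 there (median depths 1672, 1693 and 1204 UMIs). CD8 T cells with and without a Gzmb UMI were compared in the 3 treated libraries; the untreated one had 6 positive cells and did not enter. All 8 members differed: 7 of 8 were higher in Gzmb-positive cells, where 10.8% of 5451 genes were higher, and Ctss was lower, where 8.29% were. The median log2 fold change was 1.45 over the members and -0.011 over all genes.

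For Serpinb9 the level was 0.141, 0.123 and 0.271 UMIs per 10000 in cells without Gzmb in the 3 treated libraries, in the order above, 0.445, 0.455 and 0.295 in cells with 1 Gzmb UMI and 0.764, 1.03 and 0.788 in cells with 2 or more. The point values stepped up with the Gzmb count in each library (positive against negative, 2.22 ± 0.37, adjusted p = 7.9e-05). Those of cells with 1 Gzmb UMI rest on few Serpinb9 UMIs, and their counting intervals include the values of both other classes in every library. Serpinb6b was at 0.509, 0.421 and 0.611, then 0.668, 1.59 and 0.442, then 2.48, 2.58 and 2.67. Its values in cells with 2 or more Gzmb UMIs were nearly the same in the 3 libraries and above every other class (2.18 ± 0.20, adjusted p = 1.3e-08).

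Serpina3g was at 0.132, 0.164 and 0.661 UMIs per 10000 in cells without Gzmb and 1.34, 2.0 and 1.33 in cells with 2 or more (2.47 ± 0.33, adjusted p = 3.9e-06). PDOX cells without Gzmb had the highest Serpina3g of their class. Ctsd was at 3.83, 4.51 and 6.39, 11.3, 12.5 and 13.3 and 11.8, 15 and 15.8 in the 3 classes, and the largest step lay between 0 and 1 Gzmb UMI in every library (1.61 ± 0.13, adjusted p = 2.0e-09). Among Gzmb-positive CD8 T cells 92.1% had a Ctsd UMI, against 44.6% of Gzmb-negative ones (62.3% and 25.9% when thinned).

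The other calls were smaller: 1.30 ± 0.31, adjusted p = 0.0038 for Serpinb6a, 0.97 ± 0.20, adjusted p = 0.00074 for Ctsb and 0.79 ± 0.18, adjusted p = 0.0024 for Ctsc, the activator of granzymes. These 3 were lost without the anti-OX40/CpG library (1.23, adjusted p = 0.084; 0.60, adjusted p = 0.11; 0.75, adjusted p = 0.059) and were not called in thinned cells, and DESeq2 did not call Serpinb6a and Ctsc. Ctss was at 3.68, 2.53 and 2.53 UMIs per 10000 in cells without Gzmb and 1.46, 1.1 and 1.09 in cells with 2 or more, lower in 3 of 3 libraries (-0.94 ± 0.17, adjusted p = 0.00028).

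**Figure D3:**
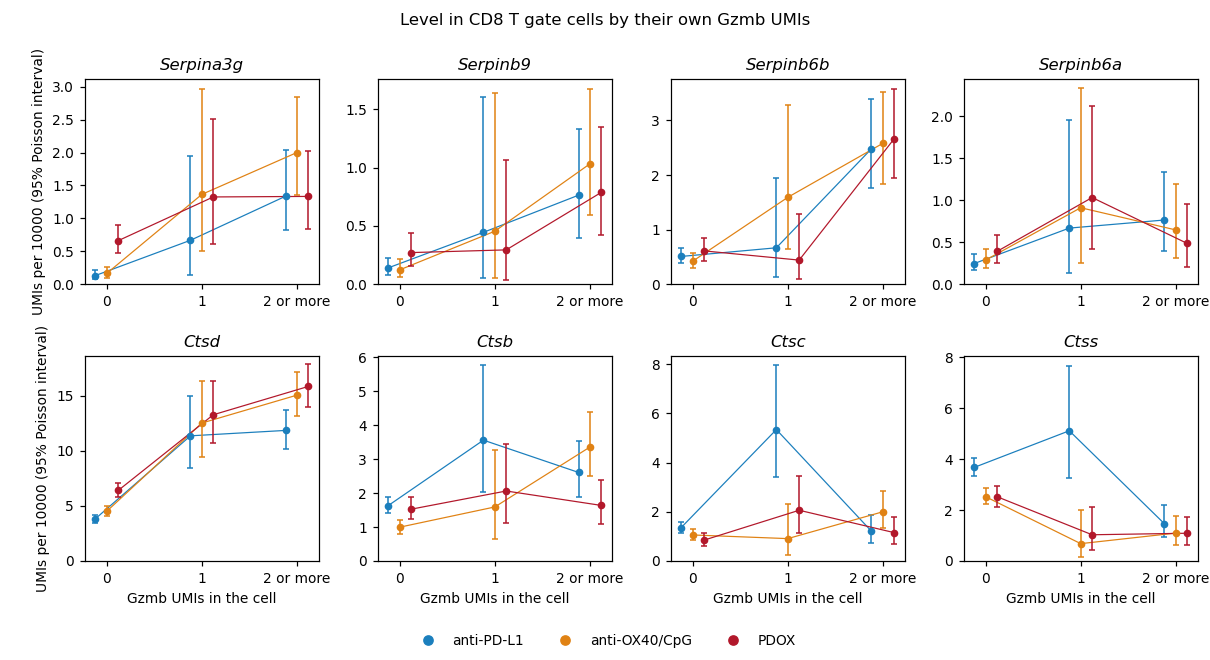
Level of each gene (UMIs per 10000, y axis, with exact 95% Poisson intervals) in CD8 T gate cells with 0, 1 or 2 or more Gzmb UMIs (x axis), 1 line for each of the 3 treated libraries. Serpinb6b in the highest class lies between 2.48 and 2.67 in all 3 libraries, and Ctss lies lower there than in cells without Gzmb.

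Since most Gzmb-positive CD8 T cells were activated, the comparison was repeated within activated CD8 T cells, where 4 of 8 members were higher (3.13% of 3575 genes) and Ctss was lower (3.47% of genes). Serpinb6b was at 0.874, 0.633 and 0.775 UMIs per 10000 in Gzmb-negative and 2.23, 2.43 and 2.08 in Gzmb-positive activated cells (1.54 ± 0.23, adjusted p = 0.00012). Serpinb9 was at 0.199, 0.169 and 0.221 and 0.744, 0.95 and 0.663 (1.94 ± 0.41, adjusted p = 0.0044). The positive and negative values of both genes did not overlap across libraries. Serpinb9 in Gzmb-negative activated cells was above its level in other CD8 T cells of the same library in anti-PD-L1 and anti-OX40/CpG and below it in PDOX, on few UMIs in each.

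Ctsd was at 5.21, 7.0 and 9.56 and 12.2, 14.8 and 15.4 UMIs per 10000 (0.98 ± 0.15, adjusted p = 0.00021), again without overlap. Serpina3g was at 0.358, 0.506 and 1.25 and 1.27, 1.85 and 1.37 (1.06 ± 0.30, adjusted p = 0.037); in PDOX the 2 classes were close. Ctss was at 6.36, 2.4 and 2.07 and 2.12, 0.95 and 1.06 (-1.36 ± 0.20, adjusted p = 0.00013). The calls of Serpina3g (0.86, adjusted p = 0.34), Serpinb9 (2.02, adjusted p = 0.088) and Ctss (-1.10, adjusted p = 0.074) were lost without the anti-PD-L1 library, and that of Serpina3g also without anti-OX40/CpG (0.68, adjusted p = 0.21). DESeq2 did not call Serpina3g and Serpinb9 there.

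Ctsb (0.25 ± 0.25, adjusted p = 0.63), Ctsc (0.31 ± 0.21, adjusted p = 0.47) and Serpinb6a (0.46 ± 0.33, adjusted p = 0.48), which were higher in Gzmb-positive cells of the whole gate, were not called within activated cells. The median log2 fold change was 0.72 over the members and -0.013 over all genes. Gzmb-positive cells had a median of 2222 UMIs against 1639 in Gzmb-negative CD8 T cells. After thinning, Serpina3g, Serpinb6b and Ctsd stayed called over the whole gate, and within activated cells Ctsd alone did. The thinned fit within activated cells tested 705 genes, against 3575 in the main fit. Serpinb6b there, and Serpinb9 over the whole gate, had too few UMIs to be tested after thinning.

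**Figure D4:**
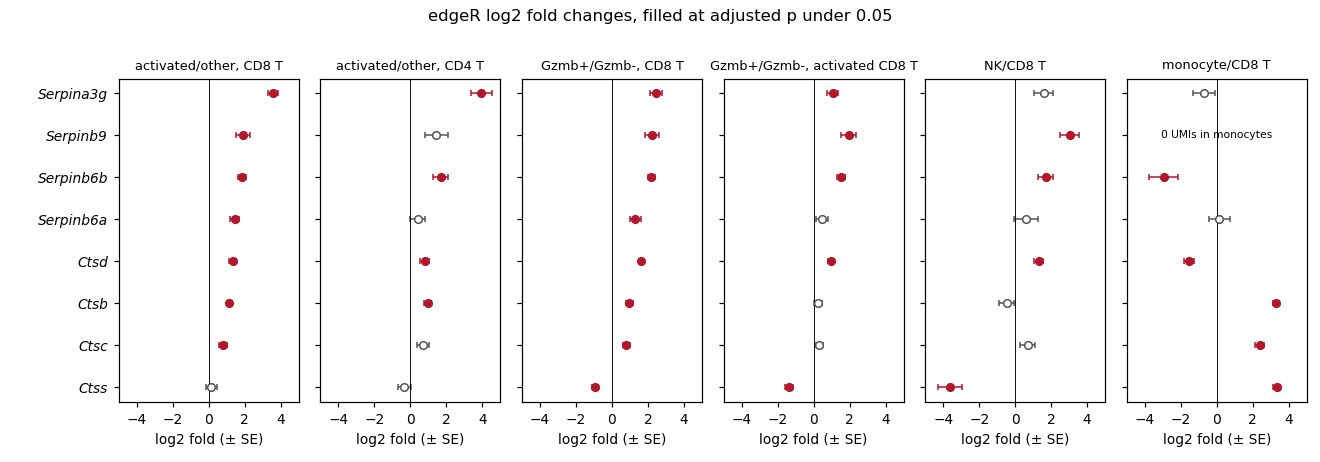
edgeR log2 fold changes with SE (x axis) of the 8 genes (y axis) in 6 comparisons of cell states and types, filled where the adjusted p is under 0.05 and open where it is not. Serpinb6b is on the high side in all panels but monocytes, and Ctss is low in NK cells and in Gzmb-positive cells and high in monocytes.

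Between treatments there is 1 library each, and the 3 comparisons with the untreated library share it. Counting genes with 50 or more UMIs over both libraries, the CD8 T level was 2 or more times the untreated one for 0 of 6 members in anti-PD-L1 (2.21% of all such genes), 1 of 7 in anti-OX40/CpG (1.96%) and 2 of 7 in PDOX (3.31%). Serpina3g was the member in anti-OX40/CpG, at a ratio of 5.77 (2.12 to 21.9), and Serpina3g and Ctsd were those in PDOX, at 10.9 (4.06 to 41) and 2.6 (2.2 to 3.08). In anti-PD-L1, Serpina3g and Serpinb9 had fewer UMIs than this cut, 43 and 38, and were not counted. Their ratios there were 3.71 (1.34 to 14.3) and 1.43 (0.639 to 3.6). All Serpina3g ratios to the untreated library rest on its 4 UMIs.

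Ctsd in the CD8 T gate was 3.41, 5.02, 6.2 and 8.85 UMIs per 10000 in the 4 libraries, with intervals that do not overlap between neighbours in this order, and 36.7%, 46.1%, 52.3% and 60.5% of cells had a UMI. The PDOX level was 1.43 (1.29 to 1.58) times that of anti-OX40/CpG. Among activated CD8 T cells the PDOX to untreated ratio of Ctsd was 3.75 (2.51 to 5.84). Among the other CD8 T cells it was 1.08 (0.845 to 1.39), with 1 inside the interval. The 6 monocyte markers were at 26.5 per 10000 of all UMIs in untreated activated cells and 2.2 in those of PDOX. Their bearing on the ratio in activated cells was not tested.

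The remaining serpins had PDOX to untreated ratios of 2.4 (1.08 to 6.05) for Serpinb9 on 39 UMIs, 1.91 (1.22 to 3.06) for Serpinb6b and 1.47 (0.802 to 2.83) for Serpinb6a. For Ctsb and Ctsc the ratios were 1.33 (0.976 to 1.84) and 0.92 (0.647 to 1.31), both with 1 inside. Ctss was lower in PDOX, at 0.766 (0.61 to 0.963), and at 0.353 (0.234 to 0.541) among activated cells, where Lyz2 was also lower in PDOX, as given above. For comparison, the Gzmb ratio was 12.9 (8.07 to 22.1).

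In the CD4 T gate the counts were 0 of 4 members in anti-PD-L1 (1.22%), 0 of 4 in anti-OX40/CpG (3.68%) and 1 of 4 in PDOX (5.9%). That member was Ctsd, at 3.3, 3.06, 4.45 and 7.7 UMIs per 10000 and a PDOX to untreated ratio of 2.33 (1.76 to 3.15). Serpina3g had 27 UMIs in PDOX against 1 in the untreated library, a ratio of 8.41 (1.39 to 344). Serpinb6b had 26 against 0, at least 2.7-fold higher against a floor of 3 counts in the untreated library. Lower by 2-fold or more were 1 of 4 members in anti-PD-L1 (2.21% of genes), which was Ctsc, and 0 of 4 in anti-OX40/CpG (2.56%) and PDOX (3.53%). Ctsc was lower in each treated library, at 0.447 (0.266 to 0.746), 0.503 (0.323 to 0.792) and 0.511 (0.332 to 0.796) of the shared untreated level. Of the 36 untreated UMIs, 18 came from its 11 activated cells, and Lyz2 in the gate was 42.2 per 10000 in the untreated library against 1.67, 0.188 and 0.467. Among other CD4 T cells the Ctsc ratios were 0.743 (0.395 to 1.43), 0.632 (0.324 to 1.25) and 0.686 (0.328 to 1.43), with 1 inside each interval.

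**Figure D5:**
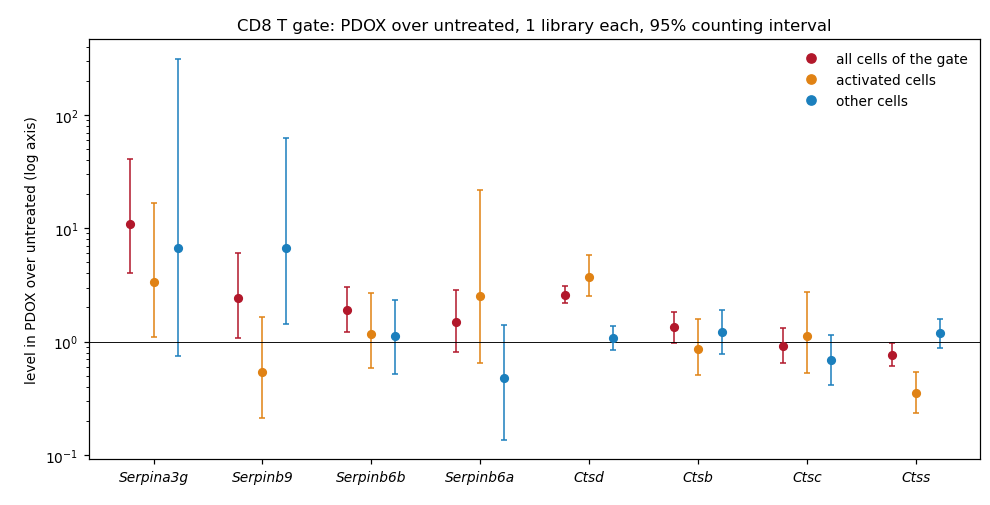
Level in PDOX over that in the untreated library for each gene (y axis, log scale, with exact 95% counting intervals) in all, activated and other cells of the CD8 T gate. Ctsd lies near 1 in other cells and above it in activated cells, and Ctss lies below 1 in activated cells.

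Of the other genes of the pathway, few were abundant enough to be tested. Among 15 other serpins, 1 was tested in the fit of activated cells, Serpini1, without a call in CD8 T cells (0.34 ± 0.41, adjusted p = 0.63). Of 12 other cathepsins and lysosomal proteases 6 were tested and 2 were higher in activated CD8 T cells: Ctsa, which protects lysosomal glycosidases (0.53 ± 0.18, adjusted p = 0.042), and Ctsh, an aminopeptidase (3.31 ± 0.56, adjusted p = 0.00015). Ctsw, the cathepsin of cytotoxic lymphocytes, was not called there (0.24 ± 0.14, adjusted p = 0.25); it was higher in NK than in CD8 T cells (1.02 ± 0.19, adjusted p = 0.00058) and lower in monocytes (-6.20 ± 0.51, adjusted p = 6.4e-10).

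Of 9 cystatins, inhibitors of cysteine cathepsins, 4 were tested and 3 were higher in activated CD8 T cells. They were Cst3 (2.1 ± 0.35, adjusted p = 0.00013), Cst7, a cystatin of cytotoxic cells (1.15 ± 0.22, adjusted p = 0.00056), and BC100530 (3.65 ± 0.91, adjusted p = 0.0057); Cstb was not (0.57 ± 0.24, adjusted p = 0.095). In the strict gates the values of activated against other CD8 T cells were 0.32, adjusted p = 0.24 for Cst3, 1.35, adjusted p = 9.8e-07 for Cst7 and 0.29, adjusted p = 0.46 for Ctsa, so that the calls of Cst3 and Ctsa were not made there, and Ctsh and BC100530 had too few UMIs to be tested. In Gzmb-positive activated CD8 T cells Cst7 was higher (0.78 ± 0.19, adjusted p = 0.013) and Cst3, which monocytes had more of than CD8 T cells (4.75 ± 0.29, adjusted p = 3.6e-12), lower (-1.15 ± 0.25, adjusted p = 0.0050). In the strict gates neither was called: the direction of Cst3 turned (0.14, adjusted p = 0.82), and Cst7 was at 0.76, adjusted p = 0.12. Of 9 granzymes and granule genes 7 were tested and 6 were higher in activated CD8 T cells, among them Gzma (5.48 ± 0.42, adjusted p = 2.4e-09) and Nkg7 (1.46 ± 0.23, adjusted p = 5.8e-05), while the lysosomal membrane gene Lamp1 was not (0.14 ± 0.25, adjusted p = 0.76). The medians of the cathepsin, cystatin and granule lists were 0.39, 1.62 and 2.15, against -0.00095 over all genes.

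The genes most like each member over 24 profiles of 6 subsets in 4 libraries, by Pearson's r of log2 levels among 3273 genes, came from the same subsets and libraries and are a description only. For Serpinb9 they were Klrc2 (r = 0.94), Gzma (0.92) and Il18rap (0.92). For Serpinb6b they were AW112010 (0.93), Ifitm10 (0.92) and Klrc2 (0.91), for Ctsd AW112010 (0.93), Gzma (0.90) and Il18rap (0.90), and for Serpina3g Lgals1 (0.89), which helped to set the activated state, Gzma (0.88) and Klrk1 (0.88). Ctsb was most like Ly6i (0.91), Anxa5 (0.90) and Ifi30 (0.90), Ctsc like Metrnl (0.88), Sh3glb1 (0.87) and Csf2ra (0.86), and Ctss like Ly6e (0.93), Smpdl3a (0.92) and Cept1 (0.90). Serpinb6a had the lowest values, 0.83 with Cdkn2d, 0.82 with Swi5 and 0.80 with Erp44.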

How the data were processed

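Blood T cells were isolated on day 18, and the authors prepared libraries with the Chromium Single Cell 3′ version 2 kit and used Cell Ranger 2.1.1. The deposited values are raw UMI counts per gene and cell; the submitters' processing notes name mm10 and Seurat 2, and the annotation is not given in the sources used here. Cells with 200 or more genes were kept, not counting 13 mitochondrial, 102 ribosomal and 10 hemoglobin genes, which also stayed out of totals and tests. Gates used raw UMIs and no doublets were called. The members and the gene lists were chosen with earlier results of these data known.

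Counts were summed per library and subset with 10 or more cells, without the genes that set the subsets, and compared with edgeR 4.0.16 in R 4.3.3 (TMM, filterByExpr, quasi-likelihood test, library as a block, Benjamini-Hochberg over all genes tested, called at adjusted p under 0.05). DESeq2 1.42.0 was an alternative, with others on normalization, filters, depth (cells thinned to 750 UMIs), gates, states and libraries; entering subsets with 5 or more cells was added after the data were seen. Log2 fold changes are ± SE. P-values measure how much the differences between subsets vary from library to library, with 1 library per treatment.

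On simulated data, edgeR recovered 71.5% of genes changed 2-fold between activated and other CD8 T cells and 2.5% between NK and CD8 T cells. The ratio interval covered 96.3% of simulated ratios over 4103 genes. Named were the 8 members, Gzmb and at most 4 genes per list, those with the most UMIs; Ctsh and Serpina3f were named after their values were seen. Python 3.11.15, numpy 2.4.6 and scipy 1.17.1 were used. Fewer cells of a state and less RNA per cell cannot be told apart in a level over a whole gate.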

Additional observations from a re-analysis of the deposited data

Results flagged for a closer look

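Nkg7, a granule membrane gene, was the 1 named gene whose change with activation differed between CD8 and CD4 T cells by the test of the difference itself. The log2 difference, CD8 minus CD4, was -3.09 ± 0.41 (edgeR, adjusted p = 0.00065, 4 libraries): Nkg7 was higher in activated cells of both lineages, by 1.46 ± 0.23 in CD8 and 4.55 ± 0.33 in CD4 T cells on the log2 scale. None of the serpins and cathepsins met this rule. In the strict gates Nkg7 stayed called (-3.20 ± 0.41, adjusted p = 1.28e-05, edgeR). Gzmb was called there too, in the opposite direction (4.15 ± 0.82, adjusted p = 0.0081, edgeR). The 6 NK markers, Nkg7 among them, summed to 9.885 per 10000 of all UMIs in other CD8 and 1.153 in other CD4 T cells. In activated cells they were at 54.95 and 25.25.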

How the results depend on the processing

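Counts are genes called by edgeR in both directions. With 1 library left out they ranged from 547 to 1176 for activated CD8 T cells (1040 with all 4), 409 to 730 for activated CD4 T cells (774), 1 to 4 for their difference (3), 179 to 439 for NK (415), 883 to 1790 for monocytes (1578), 68 to 215 for CD4 against CD8 T cells (173), 458 to 959 for Gzmb-positive cells (1043) and 44 to 250 for these within activated cells (236). The lowest count came without anti-PD-L1 for activated CD8 T cells, the difference, monocytes and Gzmb within activated cells, and without anti-OX40/CpG for the other comparisons; activated CD4 T cells had 497 without anti-PD-L1 and NK 268 without PDOX. In thinned cells the counts were 556, 264 and 7 for activated CD8 T, activated CD4 T and their difference, 738 for monocytes, 180 for Gzmb and 12 within activated cells. In strict gates they were 599, 467, 11, 261 for NK, 542 and 81. Without the 5% of cells with the most UMIs they were 27 for the difference, 684 for NK, 419 for CD4 against CD8 T and 485 for Gzmb. Without the library block they were 0, 80 and 18 for the difference, CD4 against CD8 T and Gzmb within activated cells. Without the filter the difference had 40 and Gzmb within activated cells 489; with all genes kept 1 and 392. The difference had 1 without cells over 2900 genes. With activation at 2 of 6 genes there were 605 for CD8 T and 463 for Gzmb within activated cells, 281 for CD4 against CD8 T with T cell gates at log1p above 1, and with DESeq2 351 and 59 for the Gzmb comparisons. The share of NK calls that were higher was 33.3% with edgeR and 55.9% with DESeq2. The members 2 or more times as high in PDOX CD8 T cells were 2, and 1 in thinned cells and in strict gates.

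The direction turned for these members, on the log2 scale: Ctss in activated CD8 T cells, to -0.0085 without untreated, -0.18 without anti-PD-L1, -0.45 thinned, -0.73 in strict gates and -0.22 without the deepest cells (-0.18 to 0.40 with 1 library left out); Ctss in activated CD4 T cells, to 0.13 without anti-OX40/CpG (-0.94 to 0.13); Serpinb6a in monocytes, to -0.084 without the filter. Ctsc in CD4 against CD8 T cells turned to 0.011 with DESeq2, 0.010 without the block, 0.17 and 0.045 without anti-PD-L1 and anti-OX40/CpG, and 0.037 without cells over 2900 genes (-0.27 to 0.17 with 1 library left out), and Serpinb9 there to 0.32 when thinned. Within activated cells Gzmb turned Ctsb to -0.21 without anti-OX40/CpG (-0.21 to 0.62) and Ctsc to -0.056 at 2 or more Gzmb UMIs. Other than the strict-gate Ctss value, none of these passed the threshold, and the cause was not tested. Of 36 calls of members, 13 were made under every alternative and 15 were lost with 1 library left out. The Gzmb comparisons could not be run without the untreated library, which had not entered. States and gates were compared within libraries, with the library as a block, except where the block is said to be left out; no paired analysis was possible between treatments because each has 1 library. A UMI count this low limits the 4 serpins most: 234 to 548 UMIs each in all kept cells.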

Other observations

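B cells were gated only for background levels, and 131 of them were found, with a median of 1204 UMIs. Their levels of the members did not follow those of any other gate. Serpina3g was at 1.51 (0.998 to 2.2) UMIs per 10000 and in 13.7% of B cells, 20.2-fold (10.7 to 39) the level of CD8 T cells outside the activated state. Ctss was at 7.9 (6.65 to 9.32) and in 56.5% of cells, above every T cell gate and below monocytes. Ctsd, which most NK cells had a UMI of, was at 0.673 (0.348 to 1.18) and in 7.63% of cells. Serpinb9 and Serpinb6b had 1 UMI each in the B cells.

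Within the NK gate, 15 cells had no Gzmb UMI and 47 had 1 or more. Serpinb9 was at 0.895 (0.108 to 3.23) UMIs per 10000 in the first and 3.07 (2.01 to 4.5) in the second, Ctsd at 8.95 (5.47 to 13.8) and 18.6 (15.8 to 21.7), and Serpinb6b at 3.58 (1.54 to 7.05) and 2.72 (1.72 to 4.08). These are sums over all libraries with counting intervals and no test.

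In the CD4 T gate 44 of 866 cells had a Gzmb UMI. Ctsd was at 10.2 (8.46 to 12.2) UMIs per 10000 in them and 4.78 (4.42 to 5.16) in the rest, Serpina3g at 0.78 (0.356 to 1.48) and 0.225 (0.153 to 0.32), Serpinb6b at 1.91 (1.19 to 2.88) and 0.305 (0.22 to 0.413), and Ctss at 3.03 (2.11 to 4.22) and 3.42 (3.11 to 3.74). These too are sums over libraries without a test. PDOX gave 28 of the 44 cells with a Gzmb UMI and 273 of the 822 without, and Ctsd of the CD4 T gate was highest in PDOX. The part of this mix of libraries in the differences was not tested.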
